A study of Mus musculus with 8 samples.

Results

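The genes followed here were 8 genes of hormone reception in bone, picked by symbol out of the 31053 genes in the count tables: the vitamin D receptor Vdr, its retinoid X receptor partners Rxra and Rxrb, the vitamin D-degrading enzyme Cyp24a1, the parathyroid hormone receptor Pth1r, the growth hormone receptor Ghr, the glucocorticoid receptor Nr3c1 and the thyroid hormone receptor Thra. They were measured by single-cell RNA sequencing of cells released from the parietal bones of mouse pups at P4-5, in 4 wild type (WT) libraries and 4 libraries of pups heterozygous for the G610C substitution in Col1a2 (Het G610C), a model of osteogenesis imperfecta. The labels gave the strain B6.129(FVB)-Col1a2tm1Mcbr/J for both genotypes, no agent was given to the pups, and each library held cells pooled from up to 5 animals of 1 genotype. Libraries WT 1, WT 2, Het 1 and Het 2 were made with version 3 of the 10x Genomics 3′ kit, and WT 3, WT 4, Het 3 and Het 4 with version 3.1, as the labels give it; the study's methods name version 3.1 chips for all, so the kit versions below are those of the labels. Osteoblasts (OBs) were cells with at least 10 Col1a1 UMIs (unique molecular identifiers, each counting 1 captured transcript) and at least 2 UMIs in at least 2 of Runx2, Sp7 and Ibsp. Their Col1a1 level in percent of UMIs (%UMI) then set the stage: early OBs (eOBs) below 0.75, differentiating OBs (dOBs) from 0.75 to 3.5 and mature OBs (mOBs) above 3.5. Only those 4 genes chose the cells, so they are not results here, and the 8 receptor genes took no part in the choice.

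Vdr, Rxra, Rxrb, Nr3c1 and Thra encode nuclear receptors, transcription factors whose activity is set by the hormone or ligand they bind, with Rxra and Rxrb as the common partners of Vdr and Thra. Active vitamin D acts through Vdr on OBs and their products, and Cyp24a1, a classical Vdr target, removes the hormone. Pth1r and Ghr sit in the cell membrane: the G protein-coupled Pth1r answers parathyroid hormone and its related peptide, mainly through cyclic AMP, and Ghr signals through Jak2 and Stat5. In the skeleton, parathyroid hormone and vitamin D govern calcium and bone turnover, growth hormone and thyroid hormone govern growth, and glucocorticoids in excess reduce bone formation.

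Vdr and Pth1r gave the largest OB levels relative to other cells, so the sequences before their transcription starts are shown. They are RefSeq windows on GRCm38.p6, each from 250 bases before to 50 after a start site. The gene models of GENCODE M21 place Vdr (ENSMUSG00000022479) on the minus strand of chromosome 15, from 97854425 to 97910630, and Pth1r (ENSMUSG00000032492) on the minus strand of chromosome 9, from 110722085 to 110747145. The Vdr window is chr15:97908247-97908546, and the 3 Pth1r windows are chr9:110747096-110747395, chr9:110743637-110743936 and chr9:110742561-110742860. All 4 are printed 5′ to 3′ on the minus strand, with matches to the motifs named after them in capitals.
Vdr: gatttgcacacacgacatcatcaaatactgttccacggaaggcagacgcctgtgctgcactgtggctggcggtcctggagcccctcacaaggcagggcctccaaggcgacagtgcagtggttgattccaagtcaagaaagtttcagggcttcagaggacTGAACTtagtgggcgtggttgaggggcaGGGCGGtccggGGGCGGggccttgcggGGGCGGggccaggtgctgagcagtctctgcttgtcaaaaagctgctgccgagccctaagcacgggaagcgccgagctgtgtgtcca
Pth1r, start 1: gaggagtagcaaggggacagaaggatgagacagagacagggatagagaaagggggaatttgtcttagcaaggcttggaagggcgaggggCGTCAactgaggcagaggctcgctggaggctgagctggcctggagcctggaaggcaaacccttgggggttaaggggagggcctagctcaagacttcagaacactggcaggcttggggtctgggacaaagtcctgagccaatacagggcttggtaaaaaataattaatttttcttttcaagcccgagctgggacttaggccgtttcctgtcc
Pth1r, start 2: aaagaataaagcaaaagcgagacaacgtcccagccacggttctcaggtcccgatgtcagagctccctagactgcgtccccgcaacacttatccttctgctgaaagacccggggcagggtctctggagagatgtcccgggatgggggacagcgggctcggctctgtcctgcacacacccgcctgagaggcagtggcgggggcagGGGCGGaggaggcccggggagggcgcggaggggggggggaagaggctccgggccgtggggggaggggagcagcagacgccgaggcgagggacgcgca
Pth1r, start 3: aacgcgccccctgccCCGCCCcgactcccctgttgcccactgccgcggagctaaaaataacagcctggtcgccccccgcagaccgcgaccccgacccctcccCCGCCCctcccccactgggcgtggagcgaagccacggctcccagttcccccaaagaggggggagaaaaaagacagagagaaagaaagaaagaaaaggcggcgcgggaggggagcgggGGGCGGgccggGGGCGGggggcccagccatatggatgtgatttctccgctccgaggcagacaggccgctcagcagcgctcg

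The motifs were searched on both strands, overlaps counted, and a match describes letters only. Among the core letters of hormone receptor elements, AGTTCA matched once in the Vdr window, 91 bases before the start, and is held by 14% of the 32851 windows of 300 bases; AGGTCA (16.3% of windows), GGGTCA (13.7%) and GGTTCA (10.4%) did not match there. The GC box GGGCGG, held by 35.7% of windows, matched at 63, 52 and 36 bases before the Vdr start. The 3 Pth1r starts differed from each other: start 1, at the 5′ end of the annotated gene, held the cyclic AMP response core TGACG (20.8% of windows) 161 bases upstream and no GC box, start 2 held 1 GC box, and start 3 held 4. The Runx motif TGTGGT (16.8% of windows) matched in none of the 4 windows. GC content was 61.3% for Vdr and 54.3%, 68% and 69.3% for the Pth1r starts 1 to 3. Reads from the 3′ end of transcripts do not show which start was used.

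After the cell filters, 46420 cells remained, of which 2671 were OBs: 379 eOBs, 1217 dOBs and 1075 mOBs, with 1706 OBs from WT and 965 from Het. Of the OB marker list, the 4 genes that took no part in the selection (Bglap, Ifitm5, Alpl and Dmp1) were detected in the mOBs and the eOBs of all 8 libraries. Median UMIs per OB ran from 10757 to 19299 between libraries. The number of barcodes that a pair of libraries shared was 1 to 24 (median 8, 28 pairs), at most 0.558% of the smaller library. WT 1 and WT 2 held 2417 and 2105 haematopoietic-like cells against 108 to 647 in the other libraries, and the cells with Col2a1 above 1 %UMI made up 2.14 and 3.17% of the cells kept there against 15.1 to 60.6% in the other 6, so genotype values are also given within each kit version where a call or a direction differed between the versions. P-values measure the spread between libraries of pooled pups. In the stage comparisons and the genotype comparisons, levels are CPM, UMIs per 1000000 UMIs of the same cells, and fold changes are log2 values of edgeR's quasi-likelihood test on UMIs summed per library, with Benjamini-Hochberg adjustment over all genes tested.

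Of the 7 receptor genes with enough UMIs to test, Vdr alone passed the test between genotypes in mOBs, where it was lower in Het; 52 of 10033 genes passed (0.518%). In WT mOBs, Vdr stood at 184, 247, 163 and 186 CPM in WT 1 to WT 4. In Het mOBs it stood at 104, 104, 86.8 and 85.8 CPM in Het 1 to Het 4. All 4 Het libraries lay below all 4 WT libraries, as they did, or the reverse, for 2.57% of genes. The means were 195 ± 36.2 CPM for WT and 95.2 ± 10.3 CPM for Het (SD, n = 4), and the log2 fold change was -1.09 (SE 0.12, adjusted p = 0.00159), the fifth smallest p of the table. The shift was of like size within both kit versions: -1.10 (adjusted p = 0.00327) in the version 3 libraries, where 3.46% of genes passed, and -1.07 (adjusted p = 0.0859) in the version 3.1 libraries, where 0.0287% passed. The difference between the 2 was 0.03 (SE 0.24; 0.0861% of genes passed). Marker sums of other cells moved with genotype in mOBs as well, with groups that overlapped. The 8 smooth muscle or pericyte markers summed to 75.0 to 226 CPM in WT and 226 to 453 CPM in Het (1 to 3 and 1 to 4 of them at 0), and the 11 haematopoietic markers to 9.57 to 671 CPM in WT and 1.504 to 164 CPM in Het (1 to 3 and 2 to 10 at 0). OBs that carried at least 3 markers of the haematopoietic, endothelial, or smooth muscle or pericyte list were left out in an alternative. Vdr was then at -0.99 (SE 0.12, adjusted p = 0.00307).

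**Figure D1:**
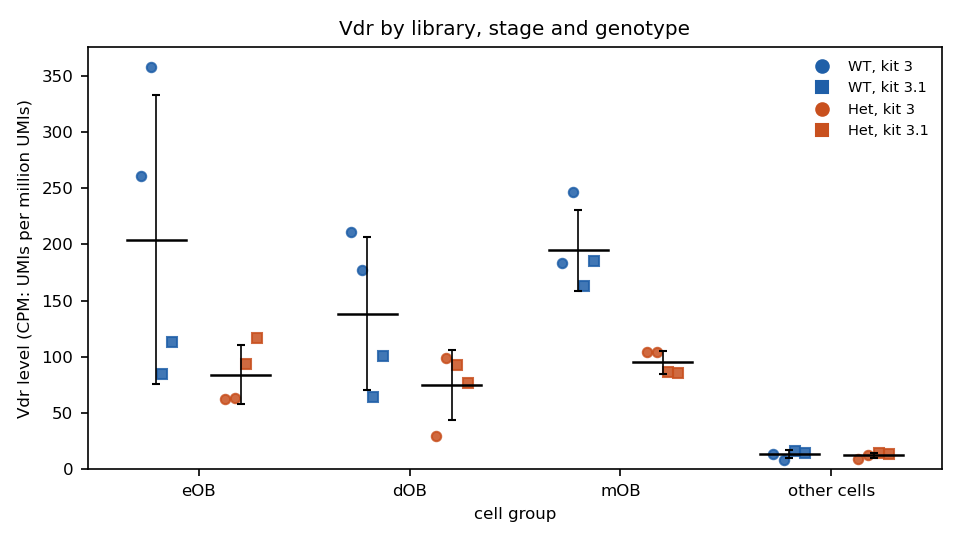
Vdr level in CPM (linear axis from 0) for each library in eOBs, dOBs, mOBs and all other cells; circles are kit version 3 and squares version 3.1, WT blue and Het orange, with the mean and SD of the 4 libraries of each genotype as lines. In mOBs all Het libraries (85.8 to 104 CPM) lie below all WT libraries (163 to 247 CPM), whereas in eOBs and dOBs the high WT points are WT 1 and WT 2.

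The mOB values rested on 57 to 892 Vdr UMIs per library, and the cell with the most Vdr UMIs gave 3.18 to 26.3% of them, the highest share in Het 4, which had 42 mOBs. Within mOBs the Vdr level rose with the Col1a1 range from 87.9 to 155 to 204 CPM over all cells summed, and Het was below WT in each of these 3 ranges. Between 3.5 and 5 %UMI of Col1a1, Vdr was 136 ± 78.3 CPM in the 3 WT libraries and 62.4 ± 11.6 CPM in the 4 Het libraries with at least 10 such cells. Between 5 and 8 %UMI it was 229 ± 50.7 CPM (4 WT libraries) and 84.1 ± 18.1 CPM (3 Het libraries). Above 8 %UMI it was 223 ± 44.1 and 146 ± 46.5 CPM (4 libraries each). These ranges describe the level and were not tested. At the stage limits themselves, Vdr stood at 145 CPM just below (0.5 to 0.75 %UMI) and 119 CPM just above the lower limit (to 1 %UMI), and at 100.4 CPM just below (from 3 %UMI) and 71.5 CPM just above the upper limit (to 4 %UMI). In that lowest part of the mOB range the order of the genotypes depended on the summary: summed over cells, Vdr was 67.9 CPM in WT (88 cells) and 78.2 CPM in Het (46 cells), and the means of the 2 libraries of each genotype with enough cells were 64.2 and 61.7 CPM.

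The share of mOBs with a Vdr UMI was 75.8 ± 15.5% in WT and 55.7 ± 19.4% in Het (SD, n = 4), and the ranges overlapped (55.9 to 89.6% against 28.6 to 74.7%). With every cell thinned to 2000 UMIs, which left out 10 of the 1075 mOBs, the shares were 28.7 ± 9.02% and 14.98 ± 7.27%, again with overlap. In haematopoietic-like cells, taken as the comparison class, 2.51% of cells held a Vdr UMI (0.894% when thinned), with library median depths of 3021 to 14061 UMIs against 12348 to 21116 in mOBs. How much of that share was free RNA was not tested. The edgeR test on the thinned sums gave Vdr -0.99 in mOBs with an adjusted p of 0.0852, so the call was lost on the thinned counts while the size was kept. The call was also lost when kit version was left out of the model (-1.09, adjusted p = 0.99999).

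In eOBs the genotype difference of Vdr itself differed between the kit versions. Vdr was 261 and 358 CPM in WT 1 and WT 2 and 62.1 and 63.7 CPM in Het 1 and Het 2. The latter pair rested on 15 and 13 Vdr UMIs. With version 3.1 it was 85.02 and 113 CPM in WT 3 and WT 4 and 93.9 and 117 CPM in Het 3 and Het 4. The genotypes were thus far apart in the version 3 libraries and overlapped in the version 3.1 libraries. The fold change was -2.31 (SE 0.30, adjusted p = 0.00631) within version 3, where 1.11% of genes passed, and -0.01 (SE 0.25) within version 3.1, where none did. The difference of 2.29 (SE 0.40) had an adjusted p of 0.0308, and 0.567% of genes passed. Over all 8 libraries it was -0.99 (SE 0.39, adjusted p = 0.9998), groups did not overlap for 1.37% of genes, and no gene of 8732 passed in eOBs (0%; 338 at an unadjusted p under 0.05, and 3 with DESeq2). The WT 1 and WT 2 eOBs also carried more haematopoietic marker UMIs, 1013 and 533 CPM summed over 11 markers with 1 and 3 of them at 0, than the Het 1 and Het 2 eOBs, 236 and 24.5 CPM with 6 and 8 at 0. Vdr in haematopoietic-like cells ran from 1.70 to 9.30 CPM. The 11 chondrocyte markers moved with both genotype and kit version in eOBs. They summed to 1357 and 34.3 CPM in WT 1 and WT 2 (0 and 6 at 0) and to 4036 and 2146 CPM in Het 1 and Het 2, but to 33563 and 23231 CPM in WT 3 and WT 4 and 13536 and 13084 CPM in Het 3 and Het 4 (none at 0). In smooth muscle or pericyte-like cells, Vdr was likewise highest in WT 1 and WT 2, 70.5 and 75.7 CPM against 10.2 to 25.7 CPM in the other 6 libraries. The part of these cells and marker lists, and of the kit version, in the eOB result was not tested.

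In dOBs no such difference passed the test. Vdr was 211 and 177 CPM in WT 1 and WT 2 against 29.8 and 98.8 CPM in Het 1 and Het 2, and 64.1 and 101 CPM in WT 3 and WT 4 against 92.9 and 76.6 CPM in Het 3 and Het 4. The fold change was -1.59 (adjusted p = 0.0882) within version 3 and 0.03 within version 3.1, a difference of 1.63 (adjusted p = 0.224), in fits in which 0.378, 0 and 0.151% of genes passed. It was -0.68 (SE 0.35, adjusted p = 0.672) over all libraries, where 1 of 10190 genes passed (0.00981%) and 1.55% did not overlap between genotypes. Over all OBs summed, Het (72.6 to 101 CPM) lay below WT (103 to 248 CPM) in every library, which held for 1.95% of genes in either direction. There the fold change was -0.95 (SE 0.20, adjusted p = 0.385), and 1 of 12080 genes passed (0.00828%). Within version 3, where 5.88% of genes passed, Vdr (-1.36, adjusted p = 0.00628) and Ghr (-0.66, adjusted p = 0.0283) passed in all OBs, and within version 3.1, where none did, they stood at -0.54 and -0.13. The differences of 0.82 and 0.53 between kit versions did not pass (adjusted p = 0.187 and 0.172; 2.16% of genes passed). The test of the genotype difference in mOBs against that in dOBs did not pass: the interaction was -0.34 (SE 0.37) for Vdr, and 0 of 11187 genes passed (0%; 504 at an unadjusted p under 0.05, and 3 with DESeq2).

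**Figure D2:**
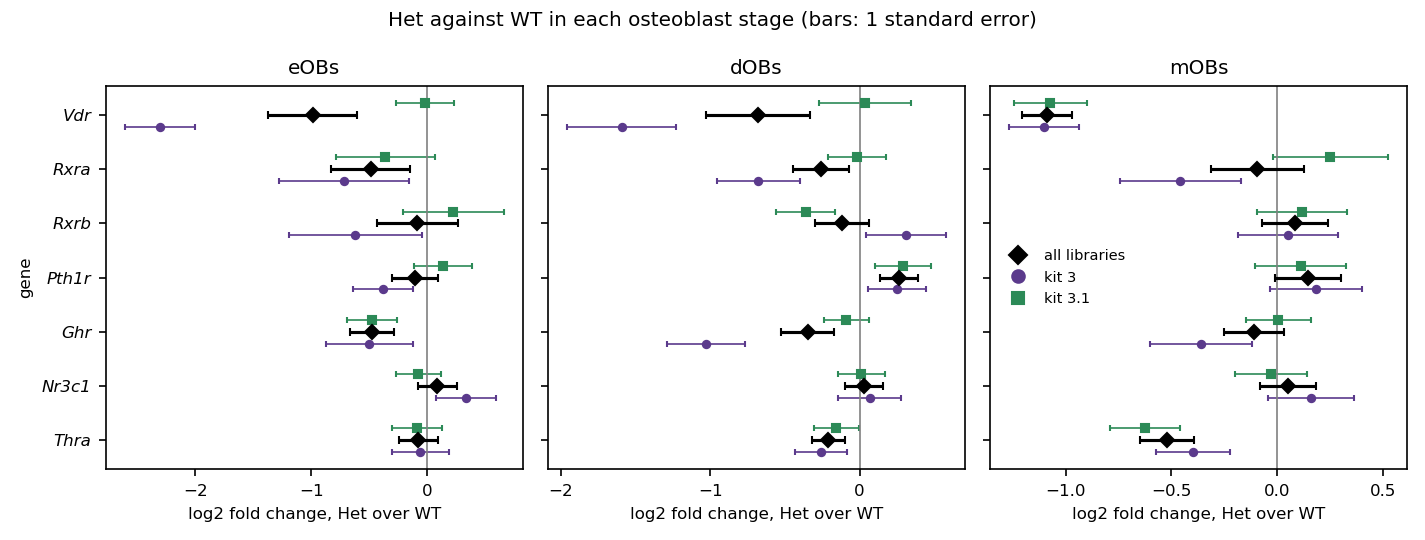
Log2 fold change of Het over WT for the 7 tested receptor genes in eOBs, dOBs and mOBs, fitted over all libraries (black), within kit version 3 (purple) and within version 3.1 (green); bars are 1 SE. In mOBs the 3 Vdr estimates coincide (-1.09, -1.10 and -1.07), whereas in eOBs they spread from -2.31 to -0.01.

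The retinoid X receptors, the DNA-binding partners of Vdr, did not pass the test between genotypes. Rxra stood at 16.2, 25.3, 17.8 and 14.1 CPM in WT 1 to WT 4 mOBs and at 17.3, 14.4, 20.8 and 18.1 CPM in Het 1 to Het 4. Its fold change was -0.09, with 2 SE on either side reaching from -0.53 to 0.35. Rxrb stood at 17.4 to 21.6 CPM in WT and 18.1 to 27.0 CPM in Het mOBs, and its fold change was 0.08 (from -0.23 to 0.39). The groups overlapped for both genes. The direction of Rxra differed between kit versions 3 and 3.1 in mOBs (-0.46 and 0.25) and all OBs (-0.60 and 0.00085), and that of Rxrb in eOBs (-0.62 and 0.23), dOBs (0.31 and -0.36) and all OBs (0.16 and -0.23), and none of these passed. When OBs were thinned to 2000 UMIs, a UMI of Rxra or Rxrb was found in 0 to 12.9% of the Vdr-positive OBs of a library and in 4.67 to 12.7% of the other OBs, with the Vdr-positive cells higher in 5 of 8 libraries.

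Cyp24a1 gave no UMI among the 45658708 UMIs of all OBs in either genotype, which limits its level to 0.0657 CPM (3 counts over all OBs). In the other cells it gave 1 UMI of 374793150, in WT 4. It did not pass the low-count filter in any comparison, and no difference between genotypes or stages is given. Other genes of vitamin D handling were also sparse: of the 11 on that list, 3 (Vdr, Rxra and Rxrb) had enough UMIs to test in mOBs.

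Thra was the other receptor gene with a genotype difference near the threshold in mOBs. It stood at 76.8, 92.6, 128 and 135 CPM in WT 1 to WT 4. It stood at 69.3, 64.8, 103 and 66.2 CPM in Het 1 to Het 4. Het was below WT within each kit version, but the groups overlapped across them. The fold change was -0.52 (SE 0.13, adjusted p = 0.104), -0.40 within version 3 and -0.62 within version 3.1, and DESeq2 placed it past the threshold (-0.53, adjusted p = 0.0436). In dOBs and eOBs the Thra values were -0.21 (SE 0.11) and -0.07 (SE 0.17). The interaction of genotype and stage between mOBs and dOBs was -0.35 for Thra (SE 0.15, adjusted p = 0.9999 by edgeR).

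Pth1r passed the test between genotypes in no OB stage. In mOBs it stood at 417, 458, 470 and 365 CPM in WT 1 to WT 4 and at 422, 610, 401 and 531 CPM in Het 1 to Het 4, with overlapping groups. The fold change was 0.15 (from -0.17 to 0.46 with 2 SE on either side) in mOBs, 0.26 (SE 0.13, adjusted p = 0.667) in dOBs and -0.10 (SE 0.20) in eOBs. Nr3c1 gave 0.05 (from -0.21 to 0.32) in mOBs, and Ghr gave -0.11 (from -0.39 to 0.17). Ghr was lower in Het in dOBs and eOBs by values that did not pass, -0.35 (SE 0.18) and -0.47 (SE 0.19). In dOBs Ghr stood at -1.03 (adjusted p = 0.121) within version 3 and -0.09 within version 3.1. In eOBs Pth1r stood at -0.38 within version 3 and 0.14 within version 3.1. The direction also differed for Nr3c1 in mOBs (0.16 and -0.028) and eOBs (0.34 and -0.075) and for Ghr in mOBs (-0.36 and 0.0054), again without passing.

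In the cells that were not OBs, 0 of 16962 genes passed between genotypes (0%), while 4335 had an unadjusted p under 0.05 and DESeq2 called 1973. Pth1r, Thra and Ghr were higher in Het by 0.65 (SE 0.30), 0.64 (SE 0.22) and 0.81 (SE 0.29), without passing. Thra stood at 101, 59.2, 174 and 182 CPM in WT 1 to WT 4 and at 215, 209, 194 and 190 CPM in Het 1 to Het 4. The Het libraries all lay above the WT libraries, as they did in either direction for 4.02% of genes. Within kit version 3, where 47.4% of all genes passed, 4 receptor genes passed, at 1.40 (Pth1r, adjusted p = 0.000919), 1.16 (Thra, adjusted p = 0.00168) 1.46 (Ghr, adjusted p = 0.00324) and 0.39 (Nr3c1, adjusted p = 0.0498). Within version 3.1, where no gene passed, they stood at -0.08, 0.13, 0.19 and 0.07. The difference between kit versions passed for Pth1r, Thra and Ghr, as for 22.8% of all genes. WT 1 and WT 2, the libraries with more haematopoietic cells, gave the low values, and haematopoietic-like cells held 8.83 ± 3.64 CPM of Pth1r and 42.8 ± 7.12 CPM of Thra (SD, n = 8) against 85.4 ± 4.82 and 202 ± 20.5 CPM in chondrocyte-like cells. The 11 haematopoietic markers summed to 27262 and 16789 CPM in the WT 1 and WT 2 cells that were not OBs and to 353 to 2133 CPM in the other 6 libraries (0 to 1 of them at 0). The 11 chondrocyte markers summed to 2545 and 3103 CPM in WT 1 and WT 2, 17733 and 13210 CPM in Het 1 and Het 2 and 47415 CPM or more with version 3.1 (none at 0). The part of cell composition in these differences was not tested. Vdr in the same cells was 8.15 to 16.4 CPM in WT and 9.17 to 14.6 CPM in Het, with a fold change of -0.19 (SE 0.14).

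From eOBs to mOBs, Pth1r rose and Thra fell, and Vdr was higher in mOBs than in dOBs. Nr3c1 passed as lower in mOBs than in eOBs, a call that 6 of the 8 libraries each decided. Rxrb also passed as higher in mOBs than in eOBs, a call that was lost without TMM and under a stricter OB rule, and Vdr also passed between mOBs and eOBs, a call that was lost without TMM, under a stricter OB rule and with marker-carrying OBs left out. The stages were set by the Col1a1 level of the same cells, so these comparisons say how the receptors varied with Col1a1. Of the 7 receptor genes, 5 passed between mOBs and eOBs, where 35.8% of 11229 genes passed, 2 between dOBs and eOBs (15.4%, 7.2% higher and 8.15% lower) and 4 between mOBs and dOBs (26.8%, 13% higher and 13.8% lower). The changes are relative to the median gene: without the TMM scaling of libraries, the median of all genes moved from -0.03 to -0.48 between mOBs and eOBs, from 0.02 to -0.08 between dOBs and eOBs and from -0.03 to -0.38 between mOBs and dOBs. The genes called higher and lower then numbered 772 and 6358, 484 and 1173, and 576 and 5695, against 1987 and 2032, 809 and 915, and 1460 and 1549 with TMM.

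Pth1r rose at both steps. In eOBs its level was 154 to 368 CPM (median 227), in dOBs 258 to 546 (median 397) and in mOBs 365 to 610 (median 440). It was higher in mOBs than in eOBs in 8 of 8 libraries, in dOBs than in eOBs in 8 of 8, and in mOBs than in dOBs in 6 of 8. The fold changes were 0.82 from eOBs to dOBs (SE 0.12, adjusted p = 0.000102), 0.59 from dOBs to mOBs (SE 0.11, adjusted p = 0.000586) and 1.42 from eOBs to mOBs (SE 0.12, adjusted p = 1.11e-08). On library totals without TMM the last was 0.94 and still passed, and the step from dOBs to mOBs was 0.23 (adjusted p = 0.115). At the lower stage limit Pth1r was 270.2 CPM just below and 287 CPM just above, and at the upper limit 391 and 495 CPM.

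Vdr differed between mOBs and dOBs by 0.91 (SE 0.18, adjusted p = 0.000625), with 6 of 8 libraries higher in mOBs. Between mOBs and eOBs it differed by 0.64 (SE 0.19, adjusted p = 0.0115), but in CPM only 4 of 8 libraries were higher in mOBs, and on library totals the difference was 0.17 (adjusted p = 0.460). Between dOBs and eOBs it was -0.28 (SE 0.19, adjusted p = 0.377). Rxrb passed from eOBs to dOBs (0.54, SE 0.16, adjusted p = 0.0243) and to mOBs (0.61, SE 0.16, adjusted p = 0.00521), and was higher than in eOBs in 8 and 6 of 8 libraries. On library totals these were 0.45 (adjusted p = 0.0903) and 0.16 (adjusted p = 0.425). The call between eOBs and dOBs was also lost with DESeq2, the stricter OB rule, other limits or marker-carrying OBs left out, and without Het 1, Het 2, WT 3 or WT 4 (adjusted p from 0.0518 to 0.244), and that between eOBs and mOBs under the stricter rule (adjusted p = 0.0512).

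Thra ran the other way. It stood at 137 to 199 CPM in eOBs, 120 to 195 in dOBs and 64.8 to 135 in mOBs, lower in mOBs than in both other stages in 8 of 8 libraries. The fold changes were -0.43 from eOBs to mOBs (SE 0.10, adjusted p = 0.00157) and -0.41 from dOBs to mOBs (SE 0.09, adjusted p = 0.00253), while dOBs against eOBs gave -0.03 (SE 0.10). Nr3c1 fell by 0.28 from eOBs to mOBs (SE 0.09, adjusted p = 0.0256) and by 0.25 from dOBs to mOBs (SE 0.09, adjusted p = 0.0368), lower in 8 of 8 libraries in both cases. Both of these Nr3c1 calls were lost when any of WT 2, Het 2, WT 3, WT 4, Het 3 or Het 4 was left out, at adjusted p up to 0.113 and 0.147. The call between eOBs and mOBs was also lost without the low-count filter, with other Col1a1 limits, under the stricter OB rule and with marker-carrying OBs left out (adjusted p from 0.0555 to 0.301). That between dOBs and mOBs was lost under the same 4 alternatives and with the collagen genes left out of the counts (adjusted p from 0.0575 to 0.233). Rxra (-0.11, SE 0.16) and Ghr (-0.05, SE 0.13) did not pass between mOBs and eOBs, but did on library totals, at -0.56 (adjusted p = 0.00791) and -0.48 (adjusted p = 0.00333).

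**Figure D3:**
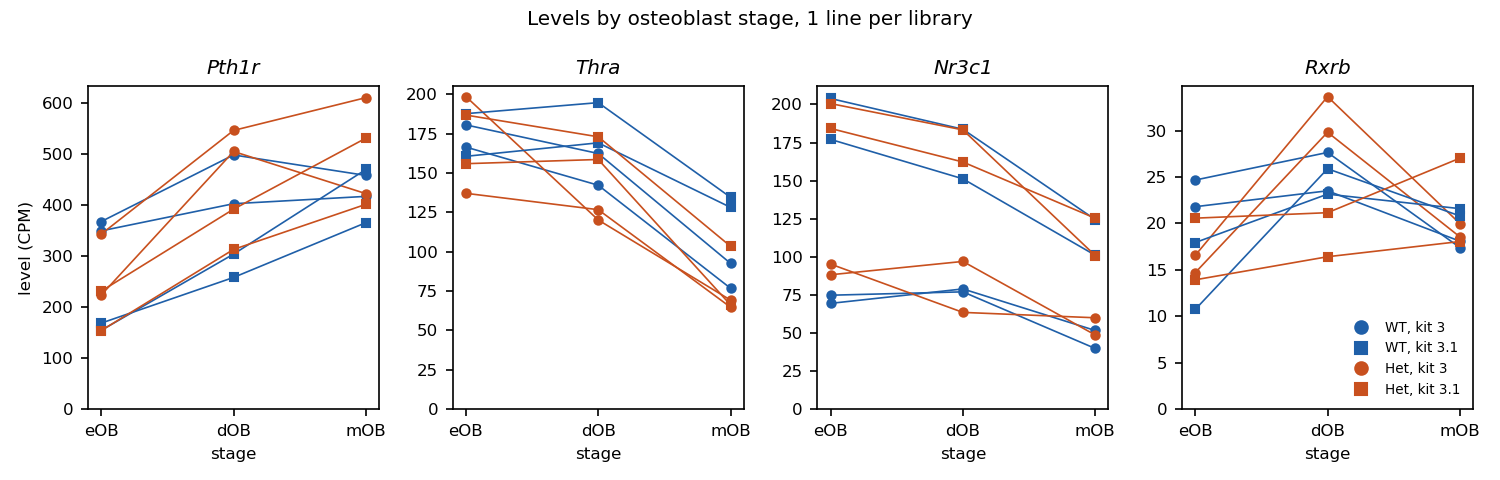
Level in CPM (linear axes from 0) of Pth1r, Thra, Nr3c1 and Rxrb in eOBs, dOBs and mOBs; each line joins the 3 stages of 1 library, with WT blue, Het orange, circles for kit version 3 and squares for version 3.1. Pth1r is higher in mOBs than in eOBs in 8 of 8 lines and Thra and Nr3c1 lower in 8 of 8, and the Nr3c1 lines of version 3.1 (101 to 204 CPM) lie above those of version 3 (39.8 to 96.9 CPM).

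The summed chondrocyte markers stood at 34.3 to 4036 CPM in version 3 eOBs and 13084 to 33563 CPM in version 3.1 eOBs against 1278 to 4173 CPM in mOBs of all libraries. In version 3.1 eOBs this sum was above the Col1a1 level itself, which is below 0.75 %UMI by the stage rule. The name eOB thus follows the selection rule only. The 10 endothelial markers summed to 31.1 to 2214 CPM in eOBs and 7.52 to 38.0 CPM in mOBs (0 to 5 and 0 to 8 of them at 0), and the 8 smooth muscle or pericyte markers to 421 to 2460 and 75.0 to 453 CPM (0 to 4 and 1 to 4 at 0). The part of these lists in the stage differences was not tested. OBs that carried at least 3 markers of the haematopoietic, endothelial, or smooth muscle or pericyte list were left out in an alternative. OBs with chondrocyte markers were kept in it. There Pth1r (1.15), Thra and Rxrb still passed between mOBs and eOBs, and Vdr (0.44, adjusted p = 0.0792) and Nr3c1 (-0.32, adjusted p = 0.0555) did not.

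Across cell classes, Vdr and Pth1r stood highest in OB stages, and the other receptors stood highest in other classes. The classes other than OBs were cells with at least 3 detected markers of a single marker list, except for osteoclast-like cells. Those needed 3 of the osteoclast and 3 of the haematopoietic list. Chondrocyte-like cells also needed Col2a1 above 1 %UMI, and the other classes had it at or below 1 %UMI. The 15935 cells that met no rule are left out of the orders below. In them Vdr averaged 15.2 ± 5.96 CPM and Ghr 205 ± 190 CPM. All counts below are levels with no test, because the classes were made from the same cells. The class chosen by fibroblast markers is called by that rule, since its OB markers summed to 15375 to 29746 CPM, against 20437 to 25272 CPM in dOBs. Its 8 fibroblast markers summed to 2918 to 13763 CPM with version 3 but 803 to 1208 CPM with version 3.1, where endothelial-like cells held 944 to 1096 CPM. In smooth muscle or pericyte-like cells the OB markers summed to 3958 to 11917 CPM, beside 6904 to 10212 CPM of their own markers. Vdr averaged 145 ± 58.6 CPM in mOBs, 144 ± 107 in eOBs and 106 ± 59.6 in dOBs (SD, n = 8). The gaps between these 3 did not exceed their SDs over libraries, which take no account of the library. The edgeR tests above, with library as a block, gave adjusted p = 0.000625 between mOBs and dOBs. Between mOBs and eOBs they gave 0.0115, a call lost under alternatives. The next class, smooth muscle or pericyte-like cells, followed at 31.9 ± 25.9 CPM, below by more than either SD, and chondrocyte-like cells at 14.4 ± 4.76. Haematopoietic-like, osteoclast-like and endothelial-like cells and those with fibroblast markers held 2.16 to 3.94 CPM.

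Pth1r averaged 459 ± 78.8 CPM in mOBs, 402 ± 106 in dOBs and 249 ± 91.3 in eOBs. The gap between mOBs and dOBs did not exceed these SDs over libraries. With library as a block, the edgeR test above passed for it (adjusted p = 0.000586). Cells with fibroblast markers (118 ± 19.97), smooth muscle or pericyte-like (116 ± 16.2) and chondrocyte-like cells (85.4 ± 4.82) formed a middle level, and endothelial-like, haematopoietic-like and osteoclast-like cells held 8.14 to 9.51 CPM. A Pth1r UMI was present in 96.0% of mOBs (53.9% when thinned) against 5.78% of haematopoietic-like cells (1.94% when thinned). The gene overlaps Myl3 on the opposite strand, and Thra overlaps Nr1d1 in the same way; the strand setting of the counting is not given in the sources used here.

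Thra was highest in cells with fibroblast markers (254 ± 27.4 CPM) and smooth muscle or pericyte-like cells (249 ± 26.5), then in chondrocyte-like cells (202 ± 20.5). It was at 172 ± 20.3 in eOBs, 156 ± 24.9 in dOBs and 92.0 ± 27.8 in mOBs, the last below endothelial-like cells (143 ± 16.9). Haematopoietic-like and osteoclast-like cells were lowest, at 42.8 ± 7.12 and 38.0 ± 17.7 CPM. Nr3c1 was spread evenly, from 191 ± 58.4 CPM in smooth muscle or pericyte-like cells to 81.4 ± 35.2 in mOBs, with no neighbours in that order apart beyond their spread.

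Ghr ran from 247 ± 198 CPM in chondrocyte-like cells to 13.6 ± 13.1 in haematopoietic-like cells, with SDs nearly as large as the means and the kit versions far apart. Rxra ran from 32.7 ± 6.501 CPM in smooth muscle or pericyte-like cells to 7.57 ± 3.70 in osteoclast-like cells, and Rxrb from 38.3 ± 9.57 in osteoclast-like cells to 17.6 ± 4.58 in eOBs. In OBs both stayed between 17.6 and 26.1 CPM on average.

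**Figure D4:**
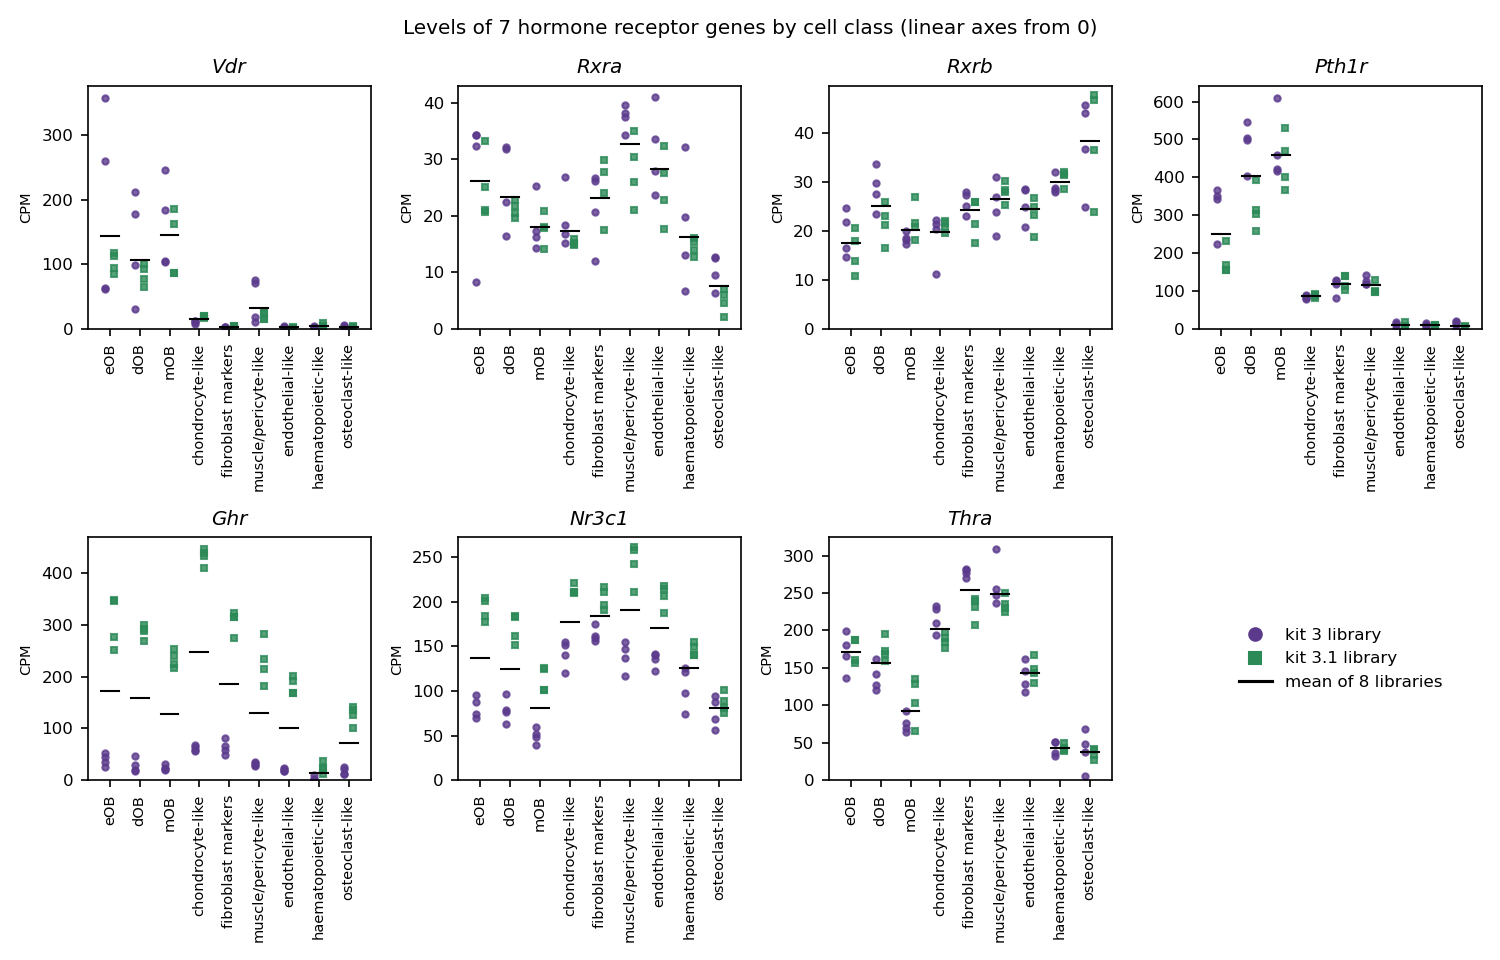
Levels in CPM (linear axes from 0, scaled per gene) of 7 receptor genes in 3 OB stages and 6 other cell classes, 1 point per library, coloured by kit version, with the mean of the 8 libraries as a line. Vdr and Pth1r are highest in the OB stages, Thra in cells with fibroblast markers and smooth muscle or pericyte-like cells, and the Ghr points of the kit versions lie apart in each OB stage.

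Ghr differed more between kit versions than any receptor gene did between genotypes. Kit version and Cell Ranger version changed together, so they and any batch that changed with them cannot be told apart. Ghr stood at 19.3 to 30.4 CPM in version 3 mOBs and at 216 to 253 CPM in version 3.1 mOBs, without overlap. Its difference of 2.87 (SE 0.15, adjusted p = 2.76e-08) was matched or exceeded by 3.51% of genes, in a comparison in which 57.7% of genes passed. It was 3.08 in dOBs (51.3% of genes passed), 2.67 in eOBs (40.8%), 2.89 in all OBs (60.4%) and 3.71 in the other cells (62.2%). Nr3c1 was higher with version 3.1 in mOBs by 0.76 (SE 0.13, adjusted p = 0.000393), and Vdr and Pth1r were lower by -0.72 (SE 0.12, adjusted p = 0.00024) and -0.54 (SE 0.16, adjusted p = 0.0107). Thra (0.09), Rxrb (-0.15) and Rxra (-0.49) did not pass.

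Over all genes in mOBs the kit difference rose with the length of the gene on the chromosome. In the tenth of genes with the shortest span, at a median of 3284 bp, the median kit difference was -0.76, and in the tenth with the longest, at 227490 bp, it was 1.76. Ghr spans 265733 bp, longer than 97.6% of genes, and Nr3c1 spans 108877 bp. Vdr (56206 bp) and Rxra (86518 bp) lay below the medians of the genes of like span, 0.53 for the tenth at 65224 bp. The genotype fits carry the kit version as a term, and each genotype had 2 libraries of each version.

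**Figure D5:**
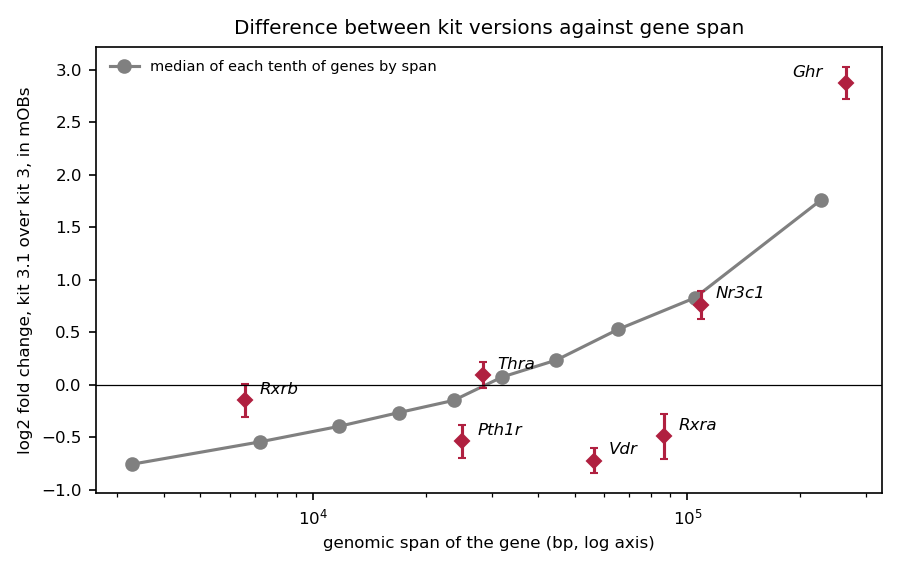
Log2 difference between kit version 3.1 and version 3 in mOBs against the genomic span of the gene in bp (log axis). Grey points are medians of 10 equal groups of the tested genes by span and red diamonds the 7 receptor genes with 1 SE. The medians climb from -0.76 to 1.76, with Ghr at 2.87 above them and Vdr at -0.72 below.

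The other genes of each hormone pathway were followed on lists. The lists were not split by the direction in which a hormone moves a gene, so their counts and medians do not measure hormone output. For Het against WT in mOBs, where 0.518% of all genes passed, 1 of 7 tested vitamin D target genes passed: Bglap, encoding osteocalcin, at -2.08 (SE 0.40, adjusted p = 0.0448). The median of these 7 was -0.80, beside 0.01 over all genes. Bglap2, a near-identical copy with which Bglap may share reads, was at -1.49 (adjusted p = 0.173), and Lrp5, a Wnt co-receptor, was at -0.95 (adjusted p = 0.0740). Spp1, encoding osteopontin, was at -0.60 (adjusted p = 0.161), and the ligand of osteoclast formation Tnfsf11 at 0.74 (adjusted p = 0.665). The Bglap call was lost when WT 1, WT 2, WT 4, Het 1 or Het 2 was left out, under the stricter OB rule (-2.06, adjusted p = 0.0563) and without the kit term (-2.26, adjusted p = 0.99999). In dOBs and eOBs none of the 7 passed, beside 0.00981% and 0% of all genes, with medians of -0.79 and -0.76.

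Of 9 parathyroid hormone target genes, again beside 0.518% of all genes, Fos, an immediate early transcription factor, passed in mOBs at -1.16 (SE 0.19, adjusted p = 0.0196), and the call was lost without WT 1, WT 2 or Het 1 and without the kit term (-1.06, adjusted p = 0.99999). None of 14 genes of the parathyroid hormone pathway passed (median 0.04), including Gnas, the stimulatory G protein, at -0.07. None passed of 10 growth hormone (median -0.27), 18 glucocorticoid (median 0.19) or 8 thyroid hormone genes (median 0.07), nor of 15 other hormone receptors (median 0.03). In dOBs, eOBs, all OBs and the other cells, no gene of these 8 lists passed, beside 0.00981%, 0%, 0.00828% and 0% of all genes. At such shares the absence of a call does not describe the lists.

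With the stage, the lists moved in both directions, beside 17.7% of all genes that rose and 18.1% that fell from eOBs to mOBs. Of 7 vitamin D target genes 6 rose, led by Bglap (6.57, adjusted p = 4.6e-10), Bglap2 (6.01, adjusted p = 1.26e-09) and Lrp5 (1.16, adjusted p = 2.36e-05), and Tnfsf11 fell by 1.39 (adjusted p = 0.00379). Of 15 parathyroid hormone pathway genes, 3 rose and 5 fell: besides Pth1r, the G protein subunit Gna11 rose by 0.64 (adjusted p = 4.46e-05; 0.17 without TMM, adjusted p = 0.124), whereas the kinase subunit Prkar2b (-1.25, adjusted p = 9.83e-05) and the G protein subunit Gnaq (-0.38, adjusted p = 0.0132) fell. Of 11 parathyroid hormone target genes, 2 rose and 7 fell, with the osteocyte Wnt inhibitor Sost up by 8.34 (adjusted p = 7.96e-08) and the phosphodiesterase Pde4b (-3.77, adjusted p = 5.97e-09), Igf1 (-3.44, adjusted p = 1.64e-08) and Bmp6 (-2.72, adjusted p = 1.91e-05) down. Sost had too few UMIs for the genotype fits of eOBs and dOBs, and Bmp6 for that of mOBs. Their entry into the stage fit thus rested on the stages where they were high, and their sizes are not exact.

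Of 11 growth hormone pathway genes, 2 rose and 6 fell, among them the feedback inhibitors Socs3 (-2.76, adjusted p = 1.0e-08) and Socs1 (-1.13, adjusted p = 1.39e-05) and the Igf1 carrier Igfbp3 (-2.82, adjusted p = 0.000591). Of 19 glucocorticoid genes, 1 rose and 10 fell, with the mineralocorticoid receptor Nr3c2 (-2.14, adjusted p = 3.23e-05), the metallothionein Mt1 (-2.03, adjusted p = 0.000116), Errfi1 (-1.85, adjusted p = 0.000164) and the receptor chaperone Hsp90aa1 (-0.65, adjusted p = 0.000137) at the smallest p. Of 8 thyroid hormone genes, 3 fell, among them the receptor genes Thrb, by 0.72 (adjusted p = 0.00983), and Thra. Of 18 other hormone receptors, 2 rose and 9 fell, led by the leptin receptor Lepr (-2.96, adjusted p = 2.89e-08), Pparg (-3.52, adjusted p = 5.75e-08), the oestrogen receptor Esr1 (-2.17, adjusted p = 5.32e-07) and Calcrl (-4.41, adjusted p = 8.44e-06). Pparg and Calcrl had too few UMIs for the genotype fits of mOBs and dOBs, and Nr3c2 for that of mOBs. Their entry into the stage fit thus rested on the stages where they were high, and the sizes of their falls are not exact. The Thrb call was lost without WT 3 or WT 4 and under the stricter OB rule (adjusted p = 0.0582). The Gnaq call was lost without Het 3, without the low-count filter, under the stricter rule and with marker-carrying OBs left out (adjusted p from 0.0529 to 0.113). With marker-carrying OBs left out, Igfbp3 was at -0.64 (adjusted p = 0.477) and Prkar2b at -0.64 (adjusted p = 0.0524).

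The genes most like each receptor were sought over 32 sums (3 OB stages and the other cells in each of 8 libraries), centred within kit version, among 6701 genes of at least 20 CPM on average; the sums share libraries and the contrast of OBs with other cells. Vdr varied most like Lifr (Pearson r = 0.95), Spp1 (0.94) and Bcar3 (0.94), and Pth1r like Panx3, Gpc1 and Srpx2 (0.96 each). Thra varied most like Auts2 (0.94), Gpm6b (0.91) and Atxn7l3b (0.90), and the 3 genes most like Nr3c1 included Pea15a (0.91) and Itm2a (0.89). Ghr varied most like Nbeal1 (0.86) and Rxrb like AI837181 (0.70).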

How the data were processed

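The authors ran Cell Ranger on 3′ 10x Genomics libraries (version 5.0.0 for version 3 kits and 6.0.1 for version 3.1 kits per the file headers, build mm10 per the labels' processing notes) and deposited filtered matrices of UMI counts. Cells with at least 500 genes and under 10% mitochondrial UMIs were kept, and no doublets were removed. In an alternative, OBs with at least 3 markers of the haematopoietic, endothelial, or smooth muscle or pericyte list were left out. OBs with chondrocyte, fibroblast or osteoclast markers were kept in that alternative. The cell class rule, the Col1a1 ranges, the kit contrasts, the within-kit fits, the crossed pairing and the fits without TMM were chosen after seeing the data. Counts were summed per library and cell group. edgeR 4.0.16 (R 4.3.3; filterByExpr, TMM, quasi-likelihood test) was fitted to all genes with kit version as a term, or library as a block for stages, and called at adjusted p under 0.05 (DESeq2 1.42.0 as an alternative). The receptor genes and lists were chosen with earlier results of these data known. Named genes are the 8 receptor genes, list genes that passed (the 4 smallest p where more did) and the 3 genes most correlated with each receptor; list genes named without passing were chosen after their values were seen, and some genes that the rule names are not reported here. On counts simulated for mOBs over 9685 genes, 34.0% of changes of 1 and 96.9% of changes of 2 on the log2 scale were recovered. The simulation gave every gene the same dispersion and no kit difference, so these shares do not measure the power on the data themselves. Same-numbered libraries did not deviate together (correlations from -0.14 to 0.12), so the numbers were not taken as pairs.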

Additional observations from a re-analysis of the deposited data

Results flagged for a closer look

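In 56 groups of 4 libraries (7 receptor genes, 4 cell groups, 2 genotypes), 2 held a library that stood apart by Dixon's criterion, which chance gives in about 1 of 20 groups. Rxra in eOBs of WT 3 was 21.1 CPM, against 32.4 to 34.3 CPM in the other 3 WT libraries. Thra in mOBs of Het 3 was 103 CPM, against 64.8 to 69.3 CPM in the other 3 Het libraries.

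The Het against WT difference itself differed between kit versions in 4 of 35 tests of receptor genes and cell groups (edgeR, adjusted over all genes). Of all genes, 0.567% passed this test in eOBs and 22.8% in the cells that were not OBs. The difference between version 3.1 and version 3 was 2.29 for Vdr in eOBs (adjusted p = 0.0308), where the version 3 libraries alone set the genotypes apart. In the cells that were not OBs it was -1.49 for Pth1r (adjusted p = 0.00831), -1.02 for Thra (adjusted p = 0.0217) and -1.27 for Ghr (adjusted p = 0.0353). The haematopoietic and chondrocyte marker sums that move with WT 1 and WT 2 are given beside these results in the text above, and their part was not tested.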

How the results depend on the processing

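The Vdr difference between genotypes in mOBs kept its direction under the alternatives run, from -1.17 to -0.99 with each library left out in turn (adjusted p 0.00132 to 0.0178, 1 receptor gene called each time). It was not called without the kit term (0 receptor genes called) or on thinned cells (0), while DESeq2 and no low-count filter called 2, Vdr and Thra. With the replicate block (the number in the sample titles within each kit version) Vdr was -1.08 (adjusted p = 0.00374), 58 genes passed, and no other receptor call changed. Crossing the numbers in version 3 dOBs gave 0 genes, as did the uncrossed block. Without the low-count filter Vdr also passed in dOBs, eOBs and all OBs (1 receptor gene each), and DESeq2 called it in all OBs (1).

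Between mOBs and eOBs, 5 receptor genes became 2 under a stricter OB rule and 3 with marker-carrying OBs left out, and 4 to 5 with a library left out. Between dOBs and eOBs, 2 became 1 under DESeq2, the stricter rule, other Col1a1 limits, left-out marker-carrying OBs and library totals, and 1 to 2 with a library left out (Rxrb lost without Het 1, Het 2, WT 3 or WT 4). Between mOBs and dOBs, 4 became 3 to 4 with a library left out, and 3 without the filter, under the stricter rule, with other limits, with marker-carrying OBs left out and with the collagen genes left out (Nr3c1 lost each time), and 5 without TMM, where Pth1r was lost and Ghr and Rxra were gained.

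Counts of genes moved by over 1.5 times. In mOBs, 52 became 0 without the kit term, 136 with DESeq2, 536 without the filter, 84 with other limits, 18 when thinned and 11 to 193 with a library left out. In all OBs, 1 became 0 without the kit term, 56 with DESeq2, 145 without the filter, 3 with the replicate block, 15 when thinned and 0 to 40 with a library left out. In dOBs, 1 became 0 without the kit term, 4 with DESeq2 and 269 without the filter. With DESeq2 and without the filter, 0 became 3 and 141 in eOBs and 1973 and 89 in other cells, where the block gave 8 and thinning 271. Without TMM, 7130 genes passed between mOBs and eOBs and 6271 between mOBs and dOBs, against 4019 and 3009.

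No called receptor gene reversed. Of those not called, the sign turned in mOBs for Pth1r (-0.030 with other limits, -0.019 thinned), Nr3c1 (-0.0092 with marker-carrying OBs left out, -0.028 within version 3.1), Rxra (0.25) and Ghr (0.0054) within version 3.1. It turned in dOBs for Rxrb (0.020 without the kit term, 0.31 within version 3) and Vdr (0.035 within version 3.1), and in other cells for Pth1r (-0.085 within version 3.1). In eOBs it turned for Pth1r (0.088 under the stricter rule, 0.076 with other limits, 0.024 thinned, 0.14 within version 3.1), Rxrb (0.10 under the stricter rule, 0.23 within version 3.1), Nr3c1 (-0.060 under the stricter rule, -0.057 with other limits, -0.075 within version 3.1) and Thra (0.16 with marker-carrying OBs left out, 0.28 thinned). Between stages it turned without the filter for Ghr (0.036, mOBs and eOBs), Nr3c1 (0.035) and Thra (0.022, dOBs and eOBs), and between mOBs and dOBs for Rxra (0.17 and 0.047 with marker-carrying OBs left out and other limits), Rxrb (-0.29) and Ghr (-0.29, adjusted p = 0.0488) without TMM, and Ghr (-0.019) under the stricter rule. With a library left out, genotype values ran from -0.29 to 0.12 (Rxra), -0.040 to 0.13 (Rxrb) and -0.020 to 0.14 (Nr3c1) in mOBs and -0.22 to 0.021 (Rxrb) and -0.051 to 0.094 (Nr3c1) in dOBs, and -0.27 to 0.046 (Pth1r) and -0.099 to 0.0071 (Rxrb) in eOBs. Stage values ran from -0.19 to 0.067 (Rxra) and -0.13 to 0.030 (Ghr) for mOBs and eOBs, -0.17 to 0.031 (Rxra), -0.073 to 0.0053 (Nr3c1) and -0.084 to 0.023 (Thra) for dOBs and eOBs, and -0.060 to 0.040 (Rxra) for mOBs and dOBs. These causes were not tested. The eOB values rest on 22 to 95 cells per library, which limits their precision.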
